A study of Yarrowia lipolytica CLIB122 with 6 samples.

Results

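The 69 transcripts described here were the abundant transcripts of *Yarrowia lipolytica* whose level was at least 2 times higher in YlΔA1-FAR than in WT-FAR. They were chosen by the measured values themselves. From the 6452 transcripts of the table, those with an NCBI gene number below 7000000 were taken (6279 transcripts). Of these, 1851 averaged 100 FPKM or more across the 6 libraries, where FPKM is a fragment count divided by the length of the transcript and by the size of the library. A transcript became a member when its mean FPKM in YlΔA1-FAR was at least 2 times its mean in WT-FAR and when all 3 values of YlΔA1-FAR lay above all 3 values of WT-FAR. The members were 69 of 1851 transcripts (3.73%). Since the difference between the strains selected them, this difference is given as a description and was not tested again.

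*Y. lipolytica* is an oleaginous yeast, which stores much of its carbon as lipid and is used as a host for products made from fatty acids. Fatty alcohols are made from activated fatty acids by the enzyme fatty acyl-CoA reductase (FAR), and the FAR gene of both strains comes from the marine bacterium *Marinobacter aquaeolei* VT8. The product of the disrupted gene, A1 (YALI0_A00913g), is a hypothetical protein. It shares low sequence similarity with Ynd1 of *Saccharomyces cerevisiae*, an enzyme of the Golgi that cleaves phosphate from nucleotides. In yeasts the level of a transcript reflects both its synthesis and its decay, and a small number of very abundant transcripts can hold a large part of the mRNA of a cell.

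The study sequenced RNA of both strains from 3 samples each, taken at 24 h, early in logarithmic growth. Both strains descend from one laboratory strain of mating type MATA, with the alleles ura3-302, leu2-270 and lys8-11 and with PEX17-HA, and both carry FAR under the TEFin promoter with a LEU2 marker at the IntF site. WT-FAR has no other change. In YlΔA1-FAR a short frameshift deletion made with CRISPR/Cas9 disrupts A1. The study reports a lower A1 transcript level after the disruption and states that the gene was not fully disabled. The libraries are labelled only A24 and C24. They were read as YlΔA1-FAR and as the control WT-FAR, because RNA-Seq in the study set just these strains against each other. The level of A1 itself, which would check this reading, was not analysed here, since its YALI0 tag could not be matched to a gene number. Transformants of each strain were picked at random for fermentation, and which of them gave the RNA is not given in the sources used here, so an effect of the disruption and a difference between clones cannot be told apart. The study also reports higher growth, ATP and fatty alcohol output in YlΔA1-FAR than in WT-FAR. Effects of these on transcript levels cannot be told apart from a direct effect of the disruption either. Nothing in the labels says that the 3 samples of a strain came from separate cultures, and the spread between them may be partly technical. FPKM is a relative unit, and a change in the RNA content of a cell cannot be told apart from a change in the other transcripts.

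The depth was estimated from the lowest values of the table, which fall on steps of 1 fragment. The estimates were 16100000 fragments for each YlΔA1-FAR library and 16400000 to 16500000 fragments for those of WT-FAR, so the estimated depths of the strains were nearly the same. Across the 67 members with a gene length in the annotation, the median value corresponded to about 5361 fragments in YlΔA1-FAR and 1813 in WT-FAR, and the lowest single value to about 65 fragments. Counting error alone would give a coefficient of variation (CV) of 1.36% in YlΔA1-FAR and 2.36% in WT-FAR at the median member, and of 11.1% at most. No library was a copy of another, since the squared differences between libraries of one strain had a median of 1.93 to 4.57 times their counting variance over 1818 abundant transcripts, where counting alone gives 0.455.

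The table identifies the members only by gene number. The RefSeq table of strain CLIB89 (W29), assembly ASM176148v1, gave locus tags and chromosomes for 67 of the 69 members and no product names. Members are therefore ordered below by abundance, size of the increase, spread and place in the genome, and no role is given to any of them.

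Members were found in every class of abundance, although 8 transcripts with a higher mean than the most abundant member were no members. Among transcripts with a mean of 100 to 200 FPKM, 30 of 775 were members (3.87%), and the share was 3.60% (22 of 611) from 200 to 500 FPKM, 3.61% (7 of 194) from 500 to 1000 FPKM and 3.69% (10 of 271) above 1000 FPKM. The median ratio of YlΔA1-FAR to WT-FAR in these classes was 3.06, 2.46, 2.58 and 2.47. Ratios above 5.54 were found only among the 30 members with a mean under 200 FPKM, while the 10 members above 1000 FPKM had ratios of 2.05 to 3.61. They were those of 2911969, 2911762 and 2909561, with WT-FAR means of 13.7, 18.4 and 30.9 FPKM. These genes met the limit of 100 FPKM only through their YlΔA1-FAR values. The classes and the ratios come from the same values, so a relation between abundance and increase cannot be read from them. The other 1782 abundant transcripts had a median ratio of 0.948, with the central 50% between 0.835 and 1.11. Of these, 80 had a ratio of 1.5 to 2, and 16 were at least 2 times lower in YlΔA1-FAR without overlap. A ratio of at least 2 with overlapping values did not occur among the abundant transcripts.

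**Figure D1:**
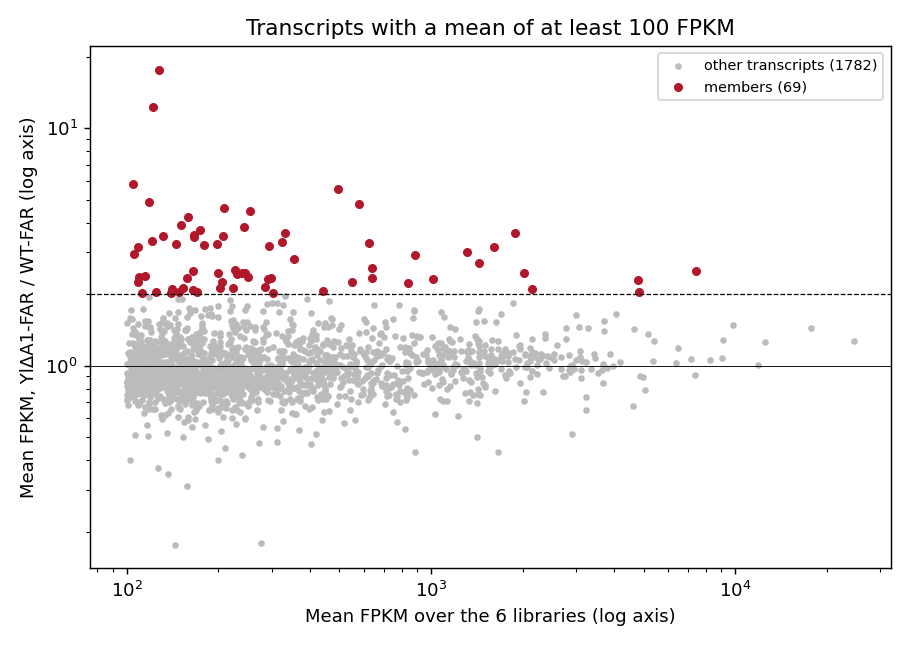
Ratio of the mean FPKM in YlΔA1-FAR to that in WT-FAR against the mean FPKM over the 6 libraries, both on log axes, for the 1851 abundant transcripts. Each point is a transcript, the 69 members are red, the dashed line marks the ratio of 2 used to choose them and the solid line a ratio of 1, and the 2 highest points have ratios of 17.7 and 12.2.

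The most abundant member was gene 2907121 (YALI1_B19429g, chromosome B). It had 10471, 10127 and 11281 FPKM in the YlΔA1-FAR libraries and 4166, 4331 and 4289 FPKM in those of WT-FAR. Both strains were far apart relative to their spread, with a ratio of 2.49, and the gene moved from rank 21 of all transcripts in WT-FAR to rank 6 in YlΔA1-FAR. Its log2 fold change in limma on log2(FPKM + 0.1) was 1.32 (standard error 0.0515).

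Gene 2911079 (YALI1_D26051g, chromosome D) followed with 5705, 6530 and 7210 FPKM in YlΔA1-FAR and 2909, 3487 and 3110 FPKM in WT-FAR. This had the smallest gap of the 10 most abundant members, and its lowest YlΔA1-FAR value was 1.64 times its highest WT-FAR value. Gene 2907146 (YALI1_B28454g, chromosome B) was almost as abundant but much tighter, with 6651, 6565 and 6780 FPKM against 2900, 2854 and 2947 FPKM. Its ratio was 2.30, with a CV of 1.62% in YlΔA1-FAR and 1.59% in WT-FAR.

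Gene 2909288 (YALI1_C04570g, chromosome C) had 2914, 2852 and 2938 FPKM in YlΔA1-FAR and 1345, 1356 and 1437 FPKM in WT-FAR, a ratio of 2.10. Gene 2905726 (YALI1_A17957g, chromosome A) had 2889, 2922 and 2833 FPKM against 1099, 1199 and 1224 FPKM, a ratio of 2.45. These transcripts stood at nearly the same level in YlΔA1-FAR, at ranks 58 and 60, and further apart in WT-FAR, at ranks 178 and 228. Gene 2912782 (YALI1_E14350g, chromosome E) reached that level from a lower start, with 2979, 2943 and 2924 FPKM in YlΔA1-FAR and 816, 836 and 797 FPKM in WT-FAR. Its ratio of 3.61 was the highest among the 10 most abundant members, and it moved from rank 333 to rank 55.

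Gene 2912553 (YALI1_E39171g, chromosome E) had 2464, 2391 and 2481 FPKM in YlΔA1-FAR against 756, 799 and 765 FPKM in WT-FAR, a ratio of 3.16. For gene 2908704 (YALI1_F33331g, chromosome F) the values were 2055, 2025 and 2222 FPKM against 736, 772 and 816 FPKM, a ratio of 2.71. Gene 2910719, which has no locus tag in the RefSeq table, had 2063, 1921 and 1926 FPKM against 659, 666 and 640 FPKM, a ratio of 3.01. These 3 transcripts started within 345 to 394 in the ranking of WT-FAR and ended at ranks 78, 104 and 116 in YlΔA1-FAR. Gene 2912582 (YALI1_E12614g, chromosome E), the last of the 10, had the lowest CV of all members in YlΔA1-FAR. Its values were 1416, 1423 and 1422 FPKM in YlΔA1-FAR and 605, 612 and 618 FPKM in WT-FAR, with a CV of 0.266% in YlΔA1-FAR and 1.06% in WT-FAR.

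**Figure D2:**
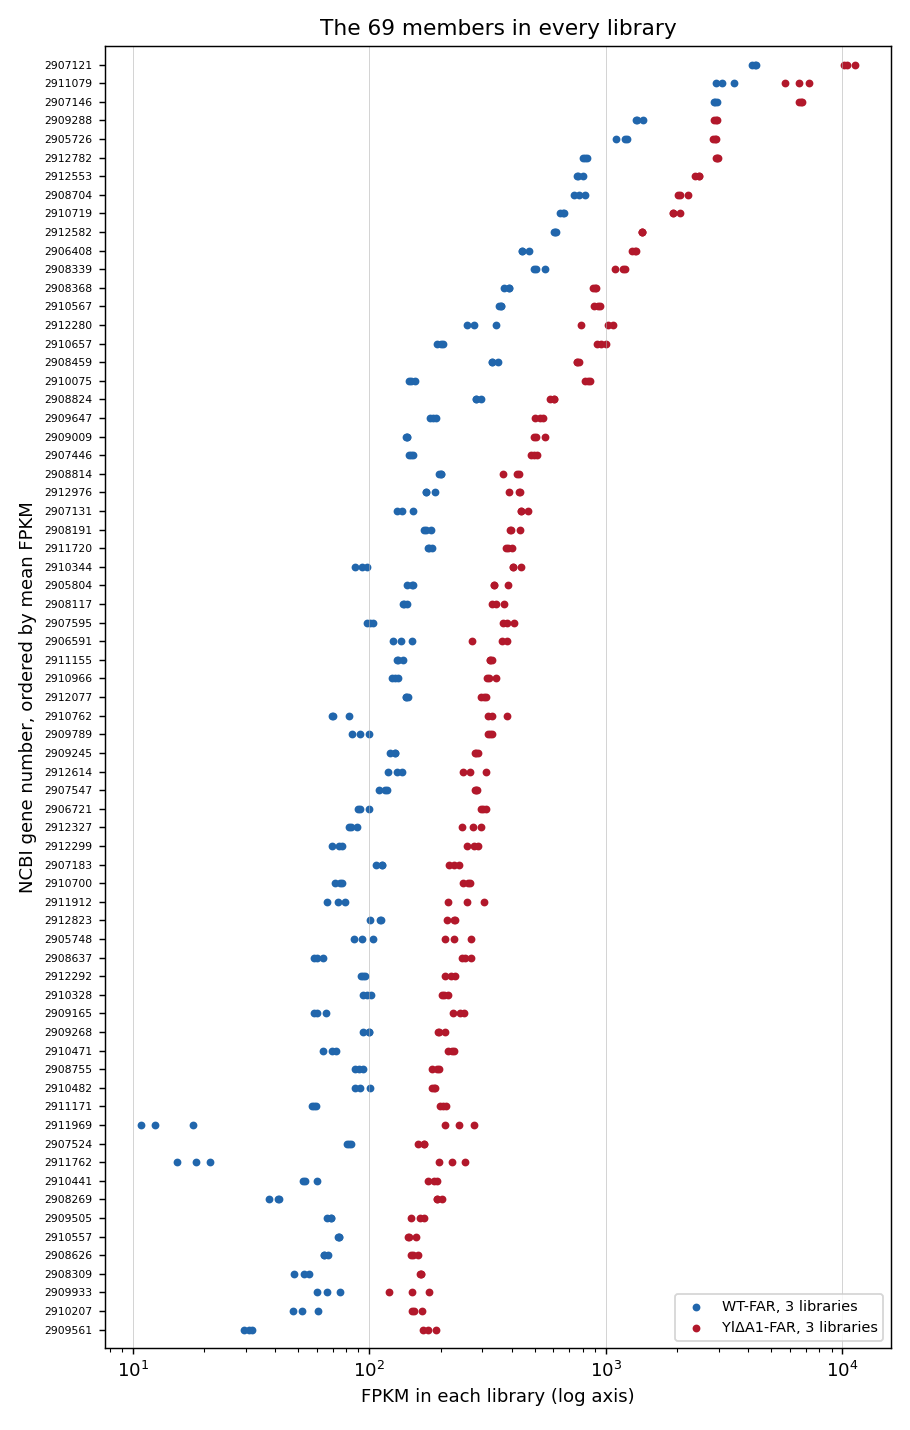
FPKM of the 69 members in each of the 3 YlΔA1-FAR libraries (red) and the 3 WT-FAR libraries (blue) on a log axis, with genes ordered by their mean over the 6 libraries. The groups do not overlap in any row, as the rule requires, and the widest gap is that of gene 2911969 at 208 to 277 FPKM against 10.8 to 17.9 FPKM.

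The increase of a few abundant members made up much of the summed increase of the 69 members. Summed over the 69 members, the level was 62883 ± 1253 FPKM in YlΔA1-FAR and 24474 ± 606 FPKM in WT-FAR (SD, n = 3 libraries each). The members thus held 4.91 ± 0.0189% of the summed FPKM of a YlΔA1-FAR library and 2.01 ± 0.0339% of that of a WT-FAR library. The 3 members with the largest differences, 2907121, 2907146 and 2911079, contributed 35% of the members' increase of 38409 FPKM, and the first 10 contributed 62.4%. The other 59 members contributed 37.6%, and the smallest difference of a member was 76.2 FPKM. The summed FPKM of all transcripts was 59837 higher in YlΔA1-FAR, at 1279694 against 1219857. The sum of the members' differences was 64.2% of this amount. The other 1782 abundant transcripts added 25897 FPKM on balance, and the remaining transcripts changed the sum by -4469 FPKM. The amount is the net of increases and decreases, since 1047 of the 1851 abundant transcripts (56.6%) had a ratio under 1. The percentage is therefore not the members' share of all increases, and summed FPKM does not measure total RNA.

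**Figure D3:**
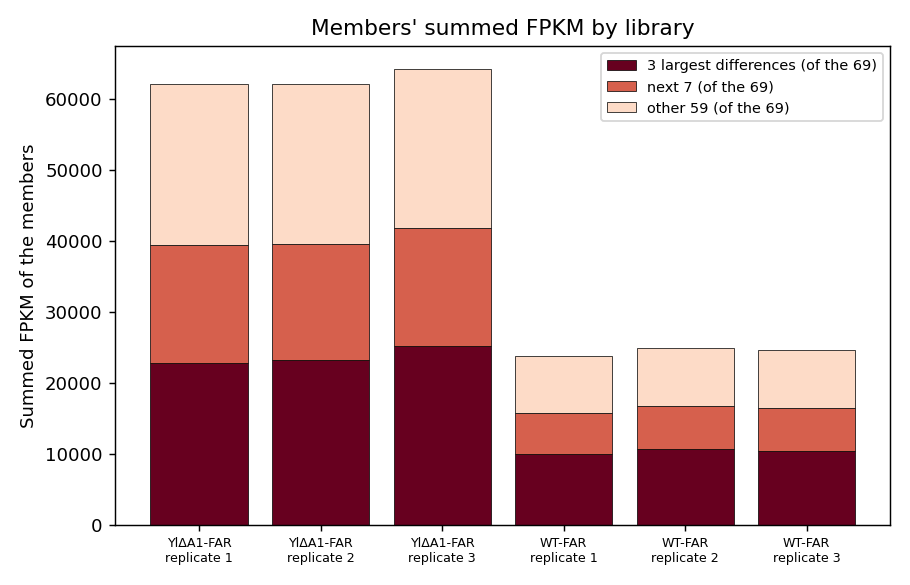
Summed FPKM of the 69 members in each library, split into the 3 members with the largest differences between the strains, the next 7 and the other 59. The bars of YlΔA1-FAR end at 62185, 62135 and 64330 FPKM and those of WT-FAR at 23793, 24953 and 24677 FPKM.

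In the order of all transcripts, the members moved upwards by construction, and where they started differed. In WT-FAR, 3 members were among the first 100 transcripts, 8 at ranks 101 to 500 and 6 at ranks 501 to 1000, while 27 lay below rank 2000. In YlΔA1-FAR, 7 were among the first 100, 15 at ranks 101 to 500 and 32 at ranks 501 to 1000, and 0 lay below rank 2000. A mean under 100 FPKM in WT-FAR was found for 30 of the 69 members, so the name abundant applies to these in YlΔA1-FAR and not in the control. A mean above 1000 FPKM was reached by 5 members in WT-FAR and 12 in YlΔA1-FAR.

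No ratio could lie under 2, so the rule in part set the median and the central 50% of the ratios. The median ratio was 2.5, the central 50% lay between 2.25 and 3.48, and 35 members had a ratio under 2.5, 25 a ratio of 2.5 to 4 and 9 a ratio of at least 4. On the scale of limma the log2 fold changes ran from 1.01 to 4.16 with a median of 1.32, and their standard errors from 0.0325 to 0.170. Over the 6052 transcripts tested the median log2 fold change was -0.09. All 69 members were past an adjusted p-value of 0.05 and a log2 fold change of 1 in limma, where 3.85% of all transcripts tested were past these limits with higher levels in YlΔA1-FAR. This count follows from the rule and adds nothing to it. Separation of the strains by itself was common, since all 3 YlΔA1-FAR values lay above all 3 WT-FAR values in 608 of the 1851 abundant transcripts (32.8%). Compared library by library, 53 members had a lowest YlΔA1-FAR value of at least 2 times the highest WT-FAR value, and 16 did not.

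The highest ratios belonged to a pair of genes on chromosome E. Gene 2911969 (YALI1_E26094g) had 240, 208 and 277 FPKM in YlΔA1-FAR and 10.8, 17.9 and 12.4 FPKM in WT-FAR, a ratio of 17.7 and a log2 fold change of 4.16 (standard error 0.170). Gene 2911762 (YALI1_E23256g) had 224, 196 and 254 FPKM against 15.3, 21.2 and 18.5 FPKM, a ratio of 12.2 and a log2 fold change of 3.61 (standard error 0.122). They moved from ranks 4840 and 4512 in WT-FAR to ranks 916 and 975. Both also varied more than most members, and in the same libraries, as described with the spread below. For 2911969 the lowest WT-FAR value rests on about 65 fragments.

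Behind this pair, gene 2909561 (YALI1_C00464g, chromosome C) had 169, 177 and 192 FPKM in YlΔA1-FAR against 31.1, 32.1 and 29.7 FPKM in WT-FAR, a ratio of 5.80. It was also the member with the lowest mean. Gene 2910075 (YALI1_C24891g, chromosome C) had 857, 842 and 819 FPKM against 147, 150 and 157 FPKM, a ratio of 5.54. Gene 2908269 (YALI1_F08075g, chromosome F) rose from 41.0, 41.6 and 37.8 FPKM in WT-FAR to 193, 194 and 203 FPKM, a ratio of 4.91. The values of these 3 genes were tight in both strains, with a CV of 2.27 to 6.37%.

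Among the members of chromosome D, gene 2910657 (YALI1_D06131g) had 998, 955 and 920 FPKM in YlΔA1-FAR and 194, 205 and 201 FPKM in WT-FAR, a ratio of 4.80. It was the most abundant member with a ratio above 4. Gene 2910762 (YALI1_D18982g) had 316, 330 and 382 FPKM against 70.4, 69.5 and 82.2 FPKM, a ratio of 4.63. Gene 2910344 (YALI1_D32111g) had 404, 405 and 438 FPKM against 93.4, 98.0 and 86.6 FPKM, a ratio of 4.49. The remaining genes of the first 10 by ratio were 2908637 (YALI1_F15568g, chromosome F), with 255, 246 and 270 FPKM against 58.3, 63.9 and 60.1 FPKM, and 2909165 (YALI1_C01072g, chromosome C), with 225, 243 and 250 FPKM against 58.2, 59.9 and 65.3 FPKM. Their ratios were 4.23 and 3.91, and in both the YlΔA1-FAR values were more than 3 times the highest WT-FAR value.

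The limits of the rule cut through a continuous distribution. Just inside the limit of abundance were 2909561 with a mean of 105 FPKM and 2910207 (YALI1_D20662g) with 106 FPKM. Just outside it were 2909151 (YALI1_C01393g), with a mean of 95.8 FPKM and a ratio of 6.18, and 2910697 (YALI1_D10565g), with a mean of 94.3 FPKM and a ratio of 2.00. Just inside the limit of the ratio were 2910482 (YALI1_D02206g) at 2.02 and 2908814 (YALI1_F29798g) at 2.03. The transcripts 2906871 (YALI1_B14044g) at 1.96 and 2910141 (YALI1_D15568g) at 1.95 fell just short. Among the 3188 transcripts with a mean of 10 to 100 FPKM, 96 (3.01%) met the same conditions on ratio and separation, with a median ratio of 2.58. The share and the median of the abundant members, 3.73% and 2.5, were close to these, and the difference was not tested.

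The spread between libraries of one strain was small beside the ratios. The median CV of the members was 4.11% in YlΔA1-FAR and 3.66% in WT-FAR, and the central 50% lay between 2.27 and 5.94% and between 2.42 and 6.13%. The other 1782 abundant transcripts had a median CV of 3.61% and 2.89%. A CV above 10% was found in 10 members in YlΔA1-FAR (14.5%) and in 5 in WT-FAR (7.25%), against 4.04% and 1.63% of the other abundant transcripts. These shares are descriptions without a test, and the rule itself limits the spread of the members, since it admits no overlap. In WT-FAR the groups also differ in abundance. The members' means had a median of 126 FPKM there, and the other abundant transcripts a median of 238 to 242 FPKM per library. In YlΔA1-FAR the order was reversed, with 326 FPKM for the members and 223 to 225 FPKM for the others. The 5 in WT-FAR were 2911969, 2910207, 2911762, 2912280 and 2909933. Their CVs were 27.2, 12.8, 16.1, 15.4 and 11.1%, beside counting CVs of 11.1, 7.53, 7.49, 1.07 and 3.15%. What raised these CVs was not tested.

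The members with a CV above 10% in YlΔA1-FAR did not all vary in the same way. In 7 of the 10 the highest YlΔA1-FAR value was that of replicate 3, and in 4 of these 7 the lowest was that of replicate 2. These 4 were 2911969, 2911762, 2905748 (YALI1_A03029g) and 2909933 (YALI1_C27229g). Gene 2909933 had the largest CV in YlΔA1-FAR, 18.8%, with 152, 122 and 178 FPKM against 60.2, 75.0 and 66.3 FPKM in WT-FAR, and the smallest gap between the strains of all members, at 1.62 times. Gene 2905748 had 228, 209 and 270 FPKM against 93.4, 103 and 86.4 FPKM. The other 3 of the 7 had their lowest value in replicate 1 and were 2911079, 2910762 and 2912614 (YALI1_E30677g). In WT-FAR, 6 of the 7 had their highest value in replicate 2, as did 42.0% of all members and 27.1% of the other abundant transcripts. The same counts were not made for the 72 other abundant transcripts with a CV above 10% in YlΔA1-FAR. Whether these patterns are particular to the members was therefore not tested.

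The remaining 3 of the 10 had their highest YlΔA1-FAR value in replicate 2 and their lowest in replicate 3, and all 3 were highest in replicate 3 within WT-FAR. Gene 2912280 (YALI1_D36255g) had 1021, 1071 and 786 FPKM against 258, 277 and 344 FPKM. Gene 2906591 (YALI1_A01537g) had 363, 384 and 272 FPKM against 126, 136 and 152 FPKM. For 2911912 (YALI1_E36494g) the values were 258, 306 and 215 FPKM against 74.0, 66.5 and 79.3 FPKM. In these 3 genes the strains thus came closest to each other between YlΔA1-FAR replicate 3 and WT-FAR replicate 3. Counted over all 69 members, 29 were highest in YlΔA1-FAR replicate 3, 22 in replicate 2 and 18 in replicate 1. Of the other abundant transcripts 38.0% were highest in replicate 3, 21.2% in replicate 2 and 40.8% in replicate 1. Within WT-FAR, 39.1% of the members and 48.4% of the other abundant transcripts were highest in replicate 3.

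**Figure D4:**
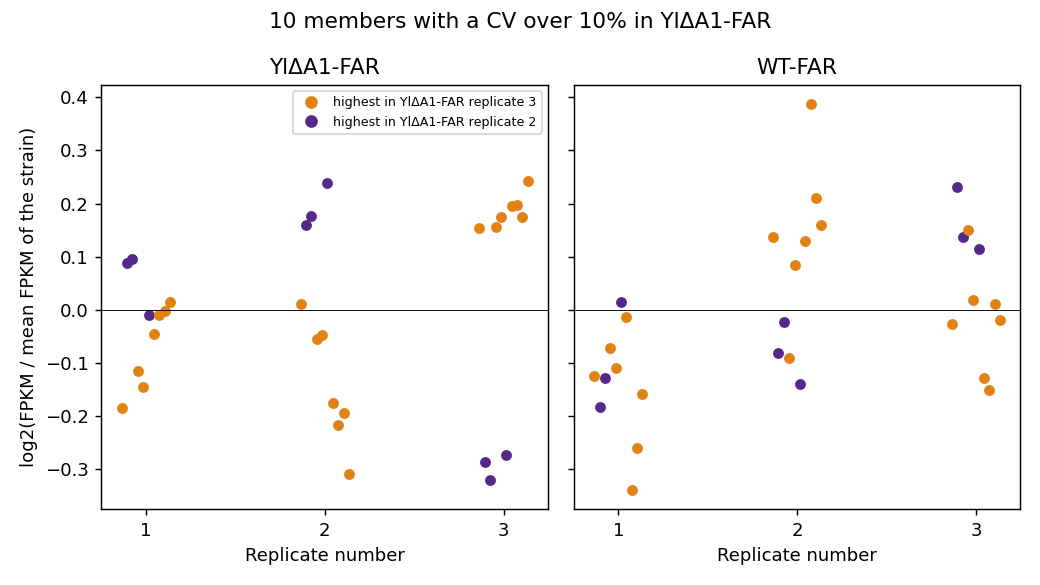
Deviation of each library from the mean of its strain, as log2(FPKM / mean FPKM of the strain), for the 10 members with a CV above 10% in YlΔA1-FAR. Points of 7 members (orange) are highest in YlΔA1-FAR replicate 3, and points of 3 members (purple) are highest in YlΔA1-FAR replicate 2, lowest in its replicate 3 and highest in WT-FAR replicate 3.

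The place of the members in the genome was not used to choose them. All 6 chromosomes held members, with 5 of 143 abundant transcripts on chromosome A (3.50%), 9 of 285 on B (3.16%), 10 of 246 on C (4.07%), 16 of 301 on D (5.32%), 14 of 429 on E (3.26%) and 13 of 414 on F (3.14%). The share on chromosome D was the highest of the 6, and its 16 members also had the highest median ratio, 3.10, against 2.36 on chromosome F and 2.46 to 2.75 on the others. The median ratio of all transcripts with a mean of 1 FPKM or more was nearly the same on every chromosome, from 0.935 to 0.951. These shares and medians were not tested against each other. By the size of the difference, chromosome B came first with 30.3% of the members' summed increase, most of it from genes 2907121 and 2907146.

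In the gene order of the RefSeq table, 1 pair of members lay next to each other, 2907183 (YALI1_B28430g) and 2907146 (YALI1_B28454g) on chromosome B. The same count is not given for other abundant transcripts, so it does not show whether members are clustered or dispersed. Gene 2907183 had 228, 239 and 216 FPKM in YlΔA1-FAR and 107, 113 and 114 FPKM in WT-FAR, a ratio of 2.05, and was far less abundant than its neighbour. Of the genes next to a member, 84 were measured with a mean of at least 1 FPKM and 82 were no members. These 82 had a median ratio of 1.04, with the central 50% between 0.850 and 1.35, and 47 (57.3%) were above 1. All 5823 transcripts with a gene number below 7000000, a mean of 1 FPKM or more and a value above 0 in WT-FAR that were no members had a median of 0.937, with the central 50% between 0.806 and 1.13, and 39.8% were above 1. A ratio of at least 1.5 was found in 16 of the 82 neighbours (19.5%) and in 8.35% of the 5823. When the next measured transcript was taken in place of the next annotated gene, a choice made after seeing the data, 23 of 131 neighbours (17.6%) had such a ratio and the median was again 1.04. At a distance of 3 to 5 genes the medians were 0.891 to 0.946. No test of this difference was made, and the strand of the genes, the distance between them and reads shared by overlapping transcripts were not analysed.

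The neighbours with the highest ratios were weakly expressed, and they are named here after their values were seen. Gene 2908638 (YALI1_F15641g), next to member 2908637, had 32.7, 28.0 and 38.4 FPKM in YlΔA1-FAR and 1.29, 1.86 and 1.67 FPKM in WT-FAR, a ratio of 20.6 and thus above that of every member. Gene 2910076 (YALI1_C24927g), next to member 2910075, had 7.04, 6.67 and 5.78 FPKM against 1.85, 1.62 and 2.57 FPKM. Genes 2912328 (YALI1_E06737g) and 2910701 (YALI1_D10721g), next to members 2912327 and 2910700, had ratios of 2.99 and 2.82. In all 4 the values of the strains did not overlap, but they were picked for their high ratios, so this adds nothing.

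**Figure D5:**
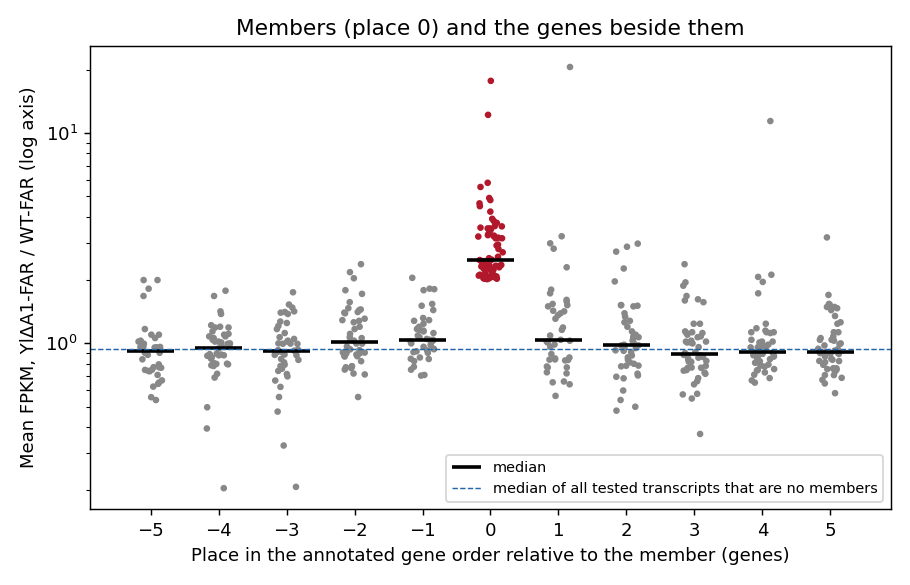
Ratio of the mean FPKM in YlΔA1-FAR to that in WT-FAR, on a log axis, for 67 members (red, place 0) and for measured genes up to 5 places before or after them in the RefSeq gene order (grey). Black bars are medians, 1.04 at both places next to a member and 0.891 to 1.01 further away, and the dashed line is the median of 0.937 of the 5823 other measured transcripts with a gene number below 7000000.

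The annotated genomic span of the members had a median of 999 bases, from 312 to 3249, and that of the other abundant transcripts a median of 1083 bases. Spans under 700 bases were found in 17 of 67 members (25.4%) and in 22.1% of 1751 others. Of the 10 most abundant members, 6 of the 9 with a known span were shorter than 700 bases, with a median of 606 bases. Among the other transcripts above 1000 FPKM, 75 of 255 were as short, with a median of 857 bases. These spans come from another strain, and FPKM depends on the length used by the authors, which was not compared.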

How the data were processed

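After removal of rRNA and fragmentation, cDNA was made from random primers and read on a BGISEQ-500 instrument. SOAPnuke was used for read filtering and RSEM for expression levels, and the authors deposited FPKM values for each library, rounded to 2 decimals. The submitters' processing notes name HISAT2 2.0.4, Bowtie2 2.2.5, RSEM 1.2.12 and DESeq2 1.4.5, without their roles. The genome build and annotation version are not given in the sources used here. All 6 libraries were used and none was left out. The members and lists were chosen with earlier results of these data known.

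FPKM values were used without further scaling. Means, SD, CV and ratios were calculated in Python 3.11.15 with pandas 2.3.3. Fold changes with standard errors came from limma 3.58.1 (lmFit, then eBayes with trend, in R 4.3.3) on log2(FPKM + 0.1) for the 6052 transcripts that averaged 1 FPKM or more, with Benjamini-Hochberg adjustment; the pseudocount slightly lowers ratios of weak genes. The fit was tried on simulated data with independent normal noise for each gene. Deviations shared by the genes of a library were absent there, so the standard errors were not checked against them. With 3 libraries against 3, an exact two-sided permutation test cannot give a p-value below 0.10.

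The depth was estimated per library from protein-coding genes with spans of 800 to 3000 bases and values under 0.25 FPKM. The number of fragments was sought that made FPKM times length, less 150 bases, fall on whole numbers up to 6. With it, 79.7 to 90.7% of 43 to 90 values per library were whole within 0.15. The number of fragments and the 150 bases were chosen to make these same values whole, so this share is no independent check. These depths are estimates, use gene spans of another strain and cover counting error only. Locus tags, chromosomes and gene order came from the RefSeq table, which matched 6073 of 6452 transcripts by gene number, and none of its coordinates are given.

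Genes were named by rule: the 10 members with the highest mean, the 10 with the highest ratio, those at the limits of the rule, those next to another member and those with the highest or lowest CV. The other members with a CV above 10% in YlΔA1-FAR and the neighbours with high ratios were named after their values were seen. The planned lists of genes for translation and for protein folding were not analysed here, since no table used pairs their YALI0 tags with gene numbers. Alternatives were other scalings, pseudocounts and filters, a ratio of medians, a replicate block and the fit without each library in turn.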

Additional observations from a re-analysis of the deposited data

How the results depend on the processing

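Scaling moved the members' values. After median-of-ratios scaling, which raised the median log2 ratio of all transcripts tested by 0.09, the median ratio of the members was 2.65 and 75 transcripts met the rule, all 69 members among them. With equal FPKM totals, which shifted that median by -0.07, the median ratio was 2.38 and 60 members met the rule. Without each library in turn, 59 to 75 transcripts met it and the median ratio was 2.49 to 2.56. The count of 59 came without YlΔA1-FAR replicate 3. With the ratio of medians, 67 members were left. With transcripts of all identifiers included, 72 met the limits. The limma limits were passed by all 69 members with other pseudocounts, other filters and median-of-ratios scaling, by 60 with equal totals and by 65 to 69 without each library in turn. With the replicate number as a replicate block all 69 were called. Same-numbered libraries deviated from their strain means with correlations of -0.02, 0.04 and 0.08, and the labels name no link between them. The members' share of the summed FPKM in YlΔA1-FAR was 4.95% when only transcripts with a gene number made up the total, and 4.90 to 4.92% without each library. Of the 270 ratios of the 30 named members under alternatives, 248 moved by less than the spread over library pairs and 22 by more, all of these under a scaling. The number of members next to each other stayed at 2 when the next 2 genes on each side were searched and in the order of expressed transcripts. Depth limits most the 7 members with a value under 500 fragments, of which 2911969, 2910207 and 2911762 had the highest counting CV in WT-FAR, at 11.1, 7.53 and 7.49%.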

Other observations

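The limit on the gene number kept out 3 transcripts that met all other conditions of the rule. They were named after their values were seen. Transcript 7009588, which has no locus tag in the RefSeq table, had 1120, 1551 and 1568 FPKM in YlΔA1-FAR and 681, 771 and 607 FPKM in WT-FAR, a ratio of 2.06. Transcript 7009590 (YALI1_E38178g) had 235, 245 and 296 FPKM against 126, 123 and 108 FPKM. The highest ratio of the 3, 2.87, was that of transcript 7009535 (YALI1_E02959g), with 241, 277 and 242 FPKM against 84.6, 80.9 and 98.9 FPKM. Among the 173 transcripts with a later gene number or no gene number, 56 had a mean of at least 100 FPKM.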
